A study of Mus musculus with 40 samples.

Results

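The CYP1 family of cytochrome P450 enzymes was followed through a dose series of TCDD in mouse kidney. Its members are Cyp1a1 (ENSMUSG00000032315), Cyp1a2 (ENSMUSG00000032310) and Cyp1b1 (ENSMUSG00000024087), which are 3 of the 55359 gene identifiers in the deposited count files. The members are the named genes of this family, taken whole. All 3 were tested, but Cyp1a2 passed the filter on low counts only through its libraries at 30 µg/kg, where it is high. RNA was sequenced from the right kidneys of 40 male C57BL/6 mice, with 5 mice and 5 libraries in each of 8 groups. Vehicle mice received sesame oil, and treated mice received 0.03, 0.1, 0.3, 1, 3, 10 or 30 µg/kg TCDD (2,3,7,8-tetrachlorodibenzo-p-dioxin) in sesame oil. Mice were gavaged 7 times at intervals of 4 days, starting at 30 days of age, and the kidneys were taken at 58 days of age. A kidney library holds RNA from every cell type of about 100 mg of tissue, so more transcript per cell and more cells that carry it cannot be told apart.

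TCDD binds the aryl hydrocarbon receptor (AhR) and is cleared slowly. The bound receptor moves to the nucleus, pairs with ARNT and binds DNA elements built around a GCGTG core. Cyp1a1 and Cyp1b1 encode microsomal monooxygenases that oxidise polycyclic aromatic hydrocarbons, and Cyp1b1 also hydroxylates estrogens. Cyp1a2 encodes an enzyme of mainly hepatic expression that metabolises aromatic amines and caffeine. Cyp1a1 is a standard readout of receptor activity in many tissues.

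The sequence just before each start site is shown because the receptor acts through DNA. Its part in the responses of the members was not tested. The letters come from RefSeq annotation on the GRCm38.p6 build, in which all 3 members were found, and are read 5′ to 3′ on the strand of the gene. Capitals mark GCGTG or its reverse complement. The windows are chr9:57697363-57697612 (plus strand) for Cyp1a1, chr9:57683704-57683905 (minus strand) for Cyp1a2 and chr17:79715062-79715311 (minus strand) for Cyp1b1.
Cyp1a1: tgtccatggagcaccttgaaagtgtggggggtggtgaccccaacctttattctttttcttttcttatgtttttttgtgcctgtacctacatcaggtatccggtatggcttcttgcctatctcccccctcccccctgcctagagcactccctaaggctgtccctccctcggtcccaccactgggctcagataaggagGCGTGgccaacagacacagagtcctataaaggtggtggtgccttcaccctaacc
Cyp1a2: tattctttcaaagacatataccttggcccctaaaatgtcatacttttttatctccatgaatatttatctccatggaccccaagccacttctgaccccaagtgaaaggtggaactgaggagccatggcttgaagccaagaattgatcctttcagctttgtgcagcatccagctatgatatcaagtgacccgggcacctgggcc
Cyp1b1: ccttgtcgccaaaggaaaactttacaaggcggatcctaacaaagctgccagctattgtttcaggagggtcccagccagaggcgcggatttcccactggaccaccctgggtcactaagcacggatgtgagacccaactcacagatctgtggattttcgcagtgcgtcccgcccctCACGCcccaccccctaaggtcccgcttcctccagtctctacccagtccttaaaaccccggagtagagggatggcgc

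Both strands of the 250 bases before each start were searched. Cyp1a1 held 1 match, 54 bases before its start, and Cyp1b1 held 1 match, 76 bases before its start. The window of Cyp1a2 held 0 matches, and 48 of its 250 bases nearest the start are not printed because the gene annotation places them in an untranslated region. The core is short and common, since 28.1% of all 32817 such windows and 41.3% of the 15526 windows of tested genes held at least 1 match. A match describes letters in this window and is not evidence of binding.

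Gene counts per library ran from 15278423 to 25575317, and 17345 genes were tested. Kidney identity was checked with 8 proximal tubule markers, whose summed level was 17878 to 20590 CPM in vehicle (CPM, counts per 1000000 gene counts, scaled with TMM factors). Adrenal cortex markers, 8 in number, summed to 809 CPM in replicate 1 at 0.03 µg/kg, 843 CPM in replicate 4 at 1 µg/kg and 44.7 CPM in replicate 2 at 3 µg/kg, and to at most 9.09 CPM in the other 37 libraries. Cyp1b1 was at 21.2 CPM, 32.7 CPM and 54.7 CPM in those 3 libraries, the last being the lowest of its group. Cyp1a1 was at 2.04, 118 and 235 CPM, the second being the highest of its group and the third the lowest. Cyp1a2 was at 0, 0.242 and 0 CPM. The part of adrenal tissue in these values was not tested.

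Cyp1a1 rose from a few CPM in vehicle kidneys to an average of 2537 CPM at the highest dose, and in edgeR's test it was called at a lower dose than any other gene. In vehicle it was at 1.15, 4.00, 1.60, 3.42 and 1.70 CPM, and at 0.03 µg/kg at 2.04, 1.72, 1.75, 4.02 and 1.28 CPM. Those 2 groups overlapped across almost their whole ranges. At 0.1 µg/kg the values were 6.71, 5.20, 6.45, 3.94 and 5.26 CPM, so 4 of 5 libraries lay above all vehicle libraries. At 0.3 µg/kg they were 29.1, 13.9, 29.7, 26.1 and 24.9 CPM, all above every vehicle library.

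The higher doses carried Cyp1a1 through 2 more orders of magnitude. Values at 1 µg/kg were 90.8, 99.5, 87.1, 118 and 101 CPM. Values at 3 µg/kg were 261, 235, 260, 361 and 354 CPM. From 0.3 µg/kg on, every group lay wholly above the next lower dose. At 10 µg/kg the libraries were at 1309, 1595, 1644, 1643 and 1652 CPM. At 30 µg/kg they were at 2884, 2088, 2074, 2996 and 2645 CPM, a mean of 2537 ± 436 (SD, n = 5) against 2.37 ± 1.25 CPM in vehicle (SD, n = 5). The coefficient of variation within a group was 52.8% in vehicle, where libraries held only 20 to 79 counts of Cyp1a1, and 9.36% at 10 µg/kg.

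**Figure D1:**
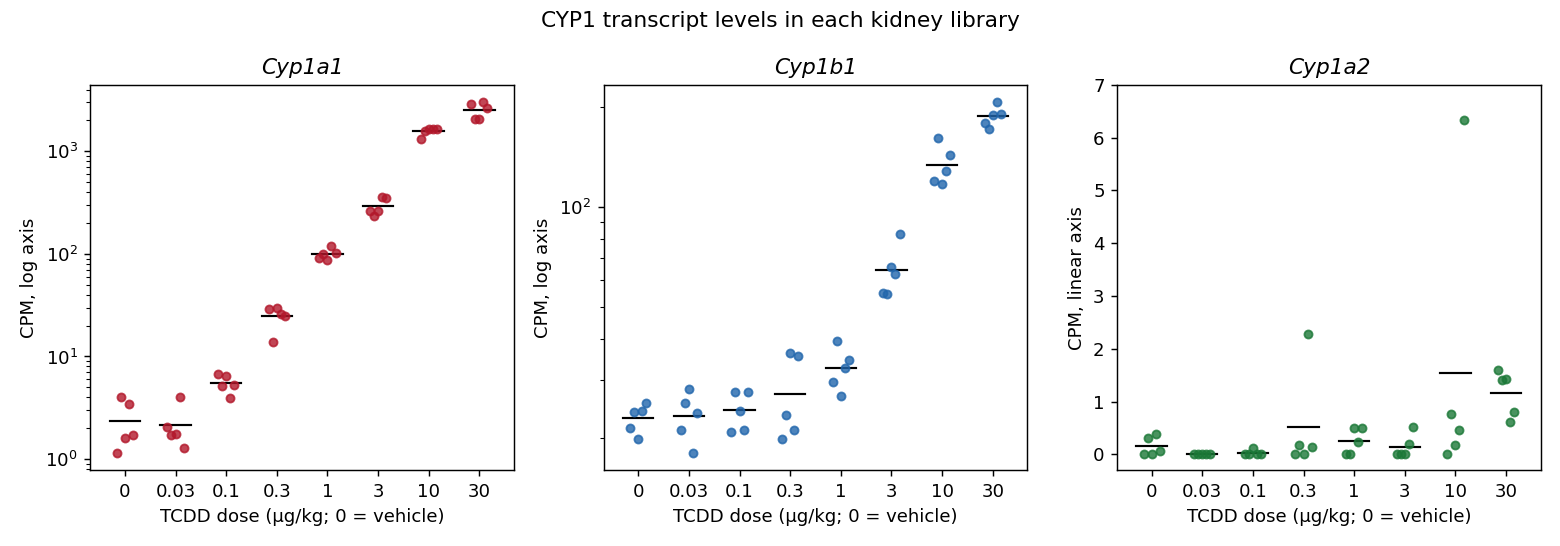
Level in CPM of Cyp1a1, Cyp1b1 (log axes) and Cyp1a2 (linear axis) in each of 40 kidney libraries against TCDD dose; points are libraries and bars are group means. Cyp1a1 separates from vehicle in 5 of 5 libraries from 0.3 µg/kg, Cyp1b1 from 1 µg/kg, and Cyp1a2 only at 30 µg/kg. Such separation was seen for 0.381, 1.19 and 3.59% of genes at 0.3, 1 and 30 µg/kg. That of Cyp1a2 is no independent support, because the gene passed the filter on low counts only through its 30 µg/kg libraries.

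Each dose was set against the same vehicle libraries by the quasi-likelihood test of edgeR, with p-values adjusted over all 17345 genes after Benjamini and Hochberg. At 0.03 µg/kg Cyp1a1 differed from vehicle by a log2 fold change of -0.10 ± 0.32 (SE), with an adjusted p of 0.986. At 0.1 µg/kg it differed by 1.23 ± 0.29 (SE) with an adjusted p of 0.877, although its unadjusted p of 0.00016 was the lowest of all genes. The tool called 0% of genes at each of these 2 doses, with 983 and 960 genes at an unadjusted p under 0.05, and DESeq2 called 5 and 0 genes. At 0.3 µg/kg Cyp1a1 rose by 3.38 ± 0.26 on the log2 scale (SE, edgeR adjusted p = 4.79e-10) and was the only gene called, 0.00577% of those tested. Complete separation above vehicle, 5 libraries over 5, was seen for 0.381% of genes at this dose and for 1.19, 1.67, 4.32 and 3.59% at 1, 3, 10 and 30 µg/kg.

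Cyp1a1 ranked first of all genes by p at every dose from 0.1 to 30 µg/kg, and first by fold change at 3, 10 and 30 µg/kg. Its log2 fold change was 5.40 ± 0.27 at 1 µg/kg (SE, edgeR adjusted p = 1.02e-15), where 0.513% of genes were called. It was 6.96 ± 0.28 at 3 µg/kg (SE, edgeR adjusted p = 1.38e-18; 1.09% of genes called). It was 9.38 ± 0.30 at 10 µg/kg (SE, edgeR adjusted p = 1.25e-21), where 4.82% of genes were called. The rise reached 10.07 ± 0.31 at 30 µg/kg (SE, edgeR adjusted p = 2.58e-22), a 1075-fold difference, where 15.9% of genes were called. Over the dose rank from 0 to 7, Cyp1a1 rose by 1.69 ± 0.05 on the log2 scale per rank (SE, edgeR adjusted p = 3.06e-25), and 19.8% of genes had a trend.

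Setting each dose against the next lower one shows how steeply Cyp1a1 followed dose. A slope of 1 on the log-log scale means that the transcript grew in proportion to dose. Between 0.03 and 0.1 µg/kg the slope was 0.76 ± 0.16 (SE), and the step did not pass edgeR's test (log2 fold change 1.33, adjusted p = 0.376), while it passed in DESeq2 (adjusted p = 0.0211) and in edgeR without replicate 4 at 0.03 µg/kg (adjusted p = 0.032). From 0.1 to 0.3 µg/kg the slope was 1.36 ± 0.15 (SE, edgeR adjusted p = 3.18e-06). Cyp1a1 was again the only gene called in that step (0.00577% of those tested).

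From 0.3 to 1 µg/kg the slope of Cyp1a1 was 1.16 ± 0.12 (SE, edgeR adjusted p = 1.17e-06), with 0.213% of genes called. From 1 to 3 µg/kg it was 0.99 ± 0.13 (SE, edgeR adjusted p = 0.000138). Cyp1a1 and Cyp1b1 were the only genes called in that step, 0.0115% of 17345. From 3 to 10 µg/kg the slope was 1.39 ± 0.12 (SE, edgeR adjusted p = 6.54e-09; 0.11% of genes called), within its error of the slope from 0.1 to 0.3 µg/kg.

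The last step had the lowest slope of Cyp1a1. From 10 to 30 µg/kg Cyp1a1 rose by 0.69 ± 0.20 on the log2 scale, a slope of 0.44 ± 0.12 (SE, edgeR adjusted p = 0.0492), and 2.7% of genes were called. All 5 libraries at 30 µg/kg lay above all 5 at 10 µg/kg, as did 0.698% of genes. That call was near the threshold and was lost without any 1 of 9 of the 10 libraries (edgeR adjusted p 0.0273 to 0.154 over the 10 fits) and in DESeq2 (adjusted p = 0.0992). The share of genes wholly above the next lower dose was 0.484% at 0.3, 0.749% at 1, 0.398% at 3 and 1.75% at 10 µg/kg.

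**Figure D2:**
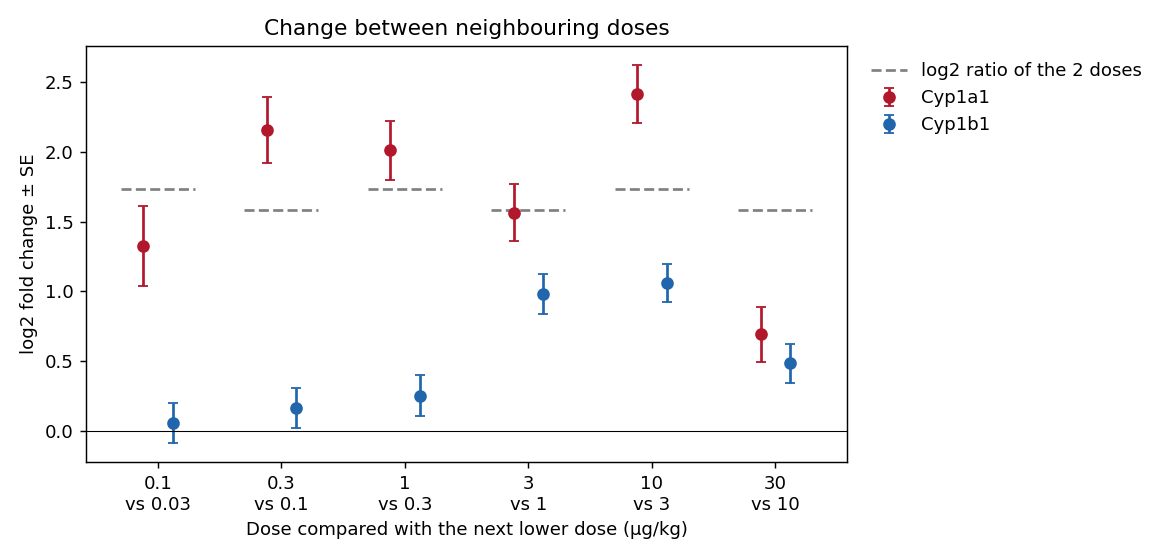
Log2 fold change between neighbouring TCDD doses for Cyp1a1 and Cyp1b1, with standard errors; dashed bars mark the log2 ratio of the 2 doses, where a transcript in proportion to dose would lie. Cyp1a1 lies near or above the bars from 0.3 to 10 µg/kg and below the bar at 30 µg/kg, and Cyp1b1 lies below every bar.

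Cyp1b1 was present in every vehicle kidney and rose at higher doses and by less. In vehicle it was at 21.4, 24.1, 20.0, 24.3 and 25.6 CPM. The libraries at 0.03 µg/kg (18.1 to 28.2 CPM), 0.1 µg/kg (20.8 to 27.7 CPM) and 0.3 µg/kg (19.9 to 36.2 CPM) all overlapped vehicle. At 1 µg/kg Cyp1b1 was at 29.5, 39.4, 26.9, 32.7 and 34.4 CPM, above every vehicle library in 5 of 5 libraries, as were 1.19% of genes. Its log2 fold change there was 0.50 ± 0.15 (SE, edgeR adjusted p = 0.165), which passed only when vehicle and this dose were fitted alone (edgeR adjusted p = 0.0386).

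From 3 µg/kg the groups of Cyp1b1 separated step by step. The libraries at 3 µg/kg were at 55.0, 54.7, 66.0, 62.9 and 82.7 CPM, which is 1.48 ± 0.15 above vehicle on the log2 scale (SE, edgeR adjusted p = 1.87e-08). At 10 µg/kg Cyp1b1 was at 120, 162, 117, 128 and 143 CPM, a rise of 2.54 ± 0.15 on the log2 scale (SE, edgeR adjusted p = 4.40e-15). At 30 µg/kg it was at 179, 171, 190, 207 and 191 CPM, a rise of 3.03 ± 0.15 (SE, edgeR adjusted p = 2.35e-17) or 8.15-fold. No library of a group from 3 µg/kg up overlapped the next lower dose. Genes wholly above the next lower dose made up 0.398% of those tested at 3, 1.75% at 10 and 0.698% at 30 µg/kg. By p, Cyp1b1 ranked behind Cyp1a1 alone at 10 and 30 µg/kg, and by fold change it ranked 43 of 17345 at 30 µg/kg.

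The slopes of Cyp1b1 were below 1 in all 6 steps. They are slopes of the whole level, which includes a vehicle mean of 23.1 ± 2.29 CPM for Cyp1b1 and 2.37 ± 1.25 CPM for Cyp1a1 (SD, n = 5). Slopes of the part above vehicle were not computed, so these values do not compare how the induced parts followed dose. The slope of Cyp1b1 was 0.62 ± 0.09 from 1 to 3 µg/kg (SE, edgeR adjusted p = 0.000387) and 0.61 ± 0.08 from 3 to 10 µg/kg (SE, edgeR adjusted p = 4.29e-05). From 10 to 30 µg/kg it was 0.31 ± 0.09 (SE, edgeR adjusted p = 0.0446), a call lost without any 1 of 7 of the 10 libraries (edgeR adjusted p 0.0271 to 0.148). Its 3 steps up to 1 µg/kg had log2 fold changes of 0.06, 0.17 and 0.25, with edgeR adjusted p-values above 0.99. Over the dose rank Cyp1b1 rose by 0.46 ± 0.03 on the log2 scale per rank (SE, edgeR adjusted p = 1.76e-13).

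The difference between Cyp1a1 and Cyp1b1 was itself tested, as the log2 ratio of their CPM within each library. In vehicle the ratio was -4.10, -2.56, -3.56, -2.79 and -3.83, so Cyp1a1 had fewer counts than Cyp1b1 in every kidney. At 0.1 µg/kg it was -1.62, -2.38, -1.89, -2.40 and -2.37, above vehicle in 5 of 5 libraries and higher by 1.23 (two-sided exact permutation p = 0.00794, adjusted p = 0.0152 over 21 tests). A p of 0.00794 is the smallest that 5 libraries against 5 can give. The adjustment covers only ratios of the members, which were chosen with earlier results of these data known. Adjusted over all 17345 genes, edgeR's test of Cyp1a1 itself at 0.1 µg/kg did not pass (adjusted p = 0.877). At 0.03 µg/kg the ratio differed from vehicle by -0.09 (exact permutation, adjusted p = 0.905).

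The gap between both genes widened over the series. At 0.3 µg/kg the ratio lay on both sides of 0, from -0.75 to 0.54, and at 1 µg/kg all 5 libraries lay above 0, from 1.33 to 1.85. Against vehicle the change in ratio was 3.23 at 0.3, 4.98 at 1 µg/kg and 5.55 at 3 µg/kg, and it reached 6.92 at 10 and 7.11 at 30 µg/kg, each at the smallest exact permutation p of 0.00794 (adjusted p = 0.0152). The ratio ran from 3.30 to 3.81 at 10 µg/kg and from 3.45 to 4.01 at 30 µg/kg, so the 2 highest doses overlapped.

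**Figure D3:**
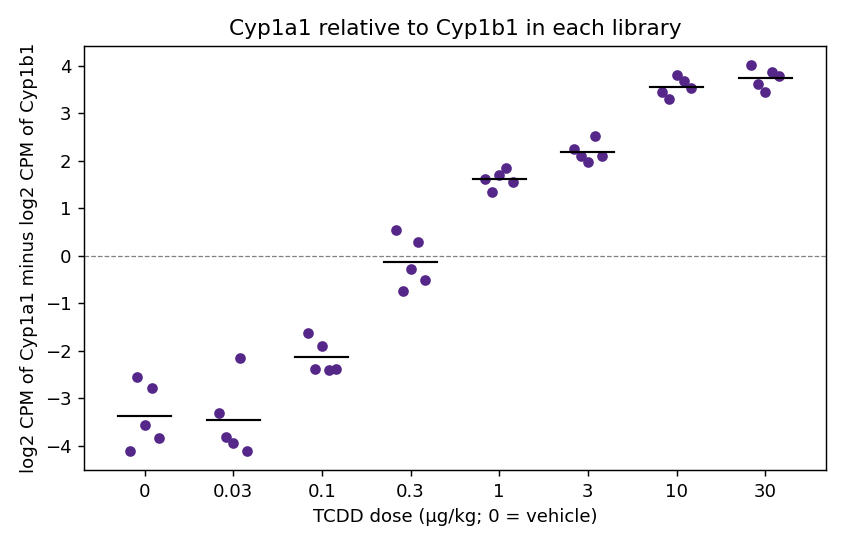
Log2 CPM of Cyp1a1 minus log2 CPM of Cyp1b1 in each kidney library against TCDD dose; points are libraries, bars are group means and the dashed line marks equal CPM. All 5 libraries at 0.1 µg/kg lie above all 5 of vehicle, the ratio crosses 0 at 0.3 µg/kg, and the groups at 10 and 30 µg/kg overlap.

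Cyp1a2 was close to the limit of detection. Vehicle libraries held 0, 6, 0, 6 and 1 counts, and all 5 libraries at 0.03 µg/kg held 0, which allows a level of up to 0.0286 CPM over that group (3 counts). At 0.1 µg/kg 1 library held 2 counts and the other 4 held 0. At 0.3 µg/kg the counts were 0, 4, 0, 37 and 3, and at 1 µg/kg 0, 0, 8, 4 and 8. At 3 µg/kg the counts of Cyp1a2 were 0, 0, 0, 3 and 11. These groups all overlapped vehicle.

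At 30 µg/kg every library held Cyp1a2, with 28, 25, 21, 11 and 21 counts. Its mean there was 1.17 ± 0.43 CPM (SD, n = 5) against 0.151 ± 0.185 in vehicle (SD, n = 5), and 5 of 5 libraries lay above all of vehicle, as did 3.59% of genes. The log2 fold change was 2.95 ± 1.25 (SE) and did not pass (edgeR adjusted p = 0.113). It passed in the fit to these 2 groups alone (edgeR adjusted p = 0.0259) and with the run of title numbers as a covariate (edgeR adjusted p = 0.0246). Over the dose rank the slope of Cyp1a2 was 0.64 ± 0.15 on the log2 scale per rank (SE, edgeR adjusted p = 0.00136). Neither this p, the passes above nor the separation from vehicle is independent support, because the gene entered the tests only through the 30 µg/kg group. The trend gave no value once that group was left out.

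The highest Cyp1a2 value was at 10 µg/kg and came from 1 kidney. The counts there were 0, 16, 3, 12 and 129, so replicate 5 stood at 6.33 CPM, and the mean without it was 0.352 ± 0.339 CPM (SD, n = 4). Its log2 fold change at 10 µg/kg was 3.36 with all libraries (edgeR adjusted p = 0.138) and 1.26 without replicate 5. A list of 10 transcripts abundant in liver did not stand high in that kidney as a sum, which at 1028 CPM ranked 37 of 40 libraries from the highest. Cyp2e1, which kidney also expresses, made up 852 CPM of it. Of the other markers, Alb, which encodes albumin, was at 11.2 CPM, the highest of 40 libraries. Ttr was at 110 CPM, Serpina1a at 39.5, Apoc3 at 8.89 and Apoa2 at 2.95 CPM, against medians over all libraries of 126, 39.0, 8.25 and 3.06 CPM. Fgb was at 1.92 CPM (median 1.17), Apoa1 at 1.08 (0.648), and Ahsg and Tat at 0.246 and 0.196 CPM (median 0 for both). The library with the next highest Cyp1a2, replicate 4 at 0.3 µg/kg with 2.29 CPM, ranked 11 of 40 for that sum, with Alb at 10.3, Ttr at 155, Serpina1a at 40.5, Apoc3 at 13.8 and Apoa2 at 5.62 CPM. Their part in the Cyp1a2 counts was not tested.

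Ratios to Cyp1a2 were less certain, because its counts were so few that the values lean on the prior count. The change of Cyp1a1 over Cyp1a2 against vehicle was 2.06 on the log2 scale at 0.1 µg/kg and 5.08 at 1 µg/kg. It reached 7.16, 7.85 and 7.58 at 3, 10 and 30 µg/kg, with all 5 values at the smallest exact permutation p of 0.00794 (adjusted p = 0.0152). It was 2.97 at 0.3 µg/kg and just missed (exact permutation, adjusted p = 0.0513). At 0.03 µg/kg it was 0.88 (exact permutation, adjusted p = 0.0278), a call lost without any 1 of 8 of the 10 libraries, at a dose where neither gene was called. The change of Cyp1b1 over Cyp1a2 passed at 0 of 7 doses (exact permutation, adjusted p 0.0595 to 0.905). With a prior count of 5 in place of 2 it passed at 3 µg/kg (1.52) and 30 µg/kg (1.18; exact permutation, adjusted p = 0.0119 for both), and with 0.5 the value at 30 µg/kg was -0.52 in place of 0.47. With a prior count of 5 the change of Cyp1a1 over Cyp1a2 passed at 0.3 µg/kg (2.94) and not at 0.03 µg/kg (0.46).

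Cyp1a1 and Cyp1a2 lie next to each other on mouse chromosome 9, on opposite strands. In the GENCODE M21 annotation the nearest edges of both genes are 4224 bases apart, which is not the distance between the RefSeq start sites used above. The coding sequences of Cyp1a1 and Cyp1a2 have 1575 and 1542 bases. They were 83.1% identical over the 1475 bases that aligned. Cyp1b1 was 76.2% identical to Cyp1a1 over 1288 aligned bases and 74.9% to Cyp1a2 over 1290. These shares leave out bases without a partner in the alignment, so they overstate likeness and do not measure how close the genes are. Exact runs of 50 bases or more numbered 2 in the Cyp1a pair and 0 in either pair with Cyp1b1. The longest exact stretch that the Cyp1a pair shares is shown in capitals, with 15 bases on each side, because a read inside it would fit both genes. It covers coding bases 193 to 329 of Cyp1a1 and 184 to 320 of Cyp1a2.
Cyp1a1: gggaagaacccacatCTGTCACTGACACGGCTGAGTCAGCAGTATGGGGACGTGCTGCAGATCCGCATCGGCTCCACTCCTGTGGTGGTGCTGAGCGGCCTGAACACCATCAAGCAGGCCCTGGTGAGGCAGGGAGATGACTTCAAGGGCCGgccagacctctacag
Cyp1a2: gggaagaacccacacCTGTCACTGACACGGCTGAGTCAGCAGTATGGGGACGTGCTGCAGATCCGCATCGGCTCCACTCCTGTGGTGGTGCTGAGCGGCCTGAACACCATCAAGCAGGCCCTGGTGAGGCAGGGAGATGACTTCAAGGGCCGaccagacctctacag

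The shared stretch of 137 bases is shorter than a read of 150 bases, and no stretch of 150 bases was common to the transcripts of these genes. Cyp1b1 shared at most 13 bases in a row with either. Untrimmed reads of full length therefore differ between the members, though possibly in few bases. Shorter reads inside the stretch would fit both genes, and the pair would map to several places only if its mate also fitted both. How such pairs were placed was not tested.

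The strand columns of the count files held a small class of fragments that the unstranded column left out of both genes. Such fragments were counted for Cyp1a1 on one strand and for Cyp1a2 on the other, and their number was the same for both genes in 40 of 40 libraries. There were 0 in all libraries from vehicle to 1 µg/kg, 3 at 3 µg/kg (in 2 libraries), 20 at 10 µg/kg (3 libraries) and 26 at 30 µg/kg (4 libraries). Cyp1b1 had 0 in every library. As a share of the Cyp1a1 count they were 0.0116% at 3 µg/kg, 0.0121% at 10 µg/kg and 0.0108% at 30 µg/kg, with exact 95% Poisson intervals of 0.00239 to 0.0338%, 0.00741 to 0.0187% and 0.00705 to 0.0158%. Beside the few Cyp1a2 counts they were not small, at 3 to 14 counts at 3 µg/kg, 20 to 160 at 10 µg/kg and 26 to 106 at 30 µg/kg. The Cyp1a2 count itself was 0.0440% of the Cyp1a1 count at 30 µg/kg. Whether any of it came from Cyp1a1 transcripts was not tested.

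At the rate of the 3 highest doses, 1.33 such fragments would be expected in the 11733 Cyp1a1 counts of the lower groups together, so their absence there was not detectable as a difference. These intervals cover counting error only. Counting the fragments for both genes left the calls of the members in place and raised the log2 fold change of Cyp1a2 at 30 µg/kg from 2.95 to 3.28 (edgeR adjusted p = 0.0658). The share in the first strand column was taken in libraries with at least 10 counts over both strand columns, which include the fragments counted for both genes. It was 19.4 to 91.7% for Cyp1a2 (11 libraries), 34.2 to 64.9% for Cyp1a1 (40 libraries) and 44.7 to 60.7% for Cyp1b1 (40 libraries).

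**Figure D4:**
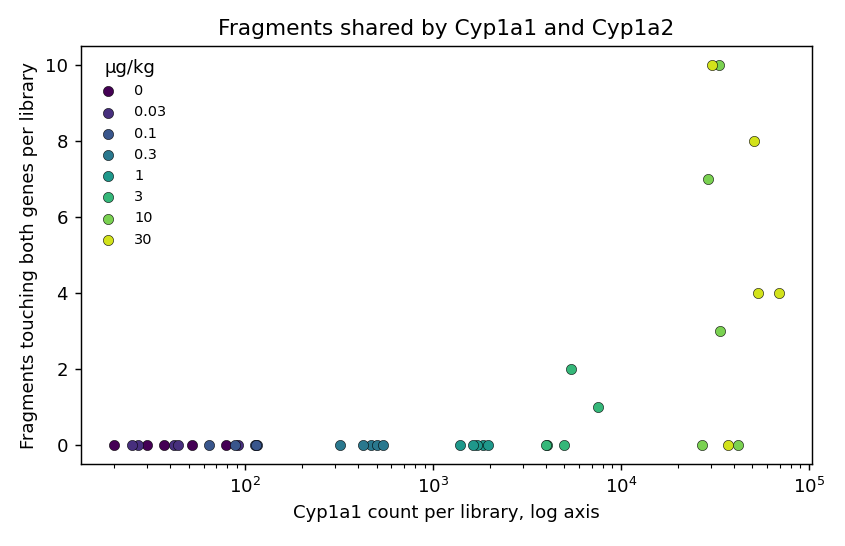
Number of fragments counted for Cyp1a1 on one strand and Cyp1a2 on the other in each library, against the Cyp1a1 count of that library on a log axis, coloured by TCDD dose in µg/kg. Such fragments appear in 9 of 40 libraries, all at 3 µg/kg or above, with at most 10 in a library.

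Levels of different genes were compared per length, as CPM per kilobase of exonic sequence. Cyp1a1 was at 0.852 ± 0.450 CPM per kb in vehicle (SD, n = 5), rank 12451 of 17275 genes, and at 910 ± 156 at 30 µg/kg (SD, n = 5), rank 21. Cyp1b1 went from 3.95 ± 0.39 to 32.1 ± 2.29 CPM per kb (SD, n = 5), rank 7859 to 1431. Cyp1a2 went from 0.0750 ± 0.0920 CPM per kb in vehicle to 0.581 ± 0.214 at 30 µg/kg (SD, n = 5), rank 16761 to 13689.

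Among the 57 P450 genes measured, Cyp1a1 moved from rank 38 in vehicle to rank 2 at 10 µg/kg and rank 1 at 30 µg/kg. It held 0.0214% of the summed P450 CPM per kb in vehicle, 0.961% at 1 µg/kg, 13.5% at 10 µg/kg and 20.5% at 30 µg/kg. Per length Cyp1a1 was below Cyp1b1 up to 0.1 µg/kg and above it from 0.3 µg/kg (8.87 ± 2.28 against 4.67 ± 1.36 CPM per kb; SD, n = 5). The P450 next below it at 30 µg/kg was Cyp4b1, at 781 ± 415 CPM per kb (SD, n = 5) against 1632 ± 114 in vehicle (SD, n = 5).

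Among the 54 other P450 genes, 10 rose and 11 fell at 30 µg/kg in edgeR's test, with a median log2 fold change of 0.07 beside 0.01 over all genes tested. Of all genes tested, 8.39% rose and 7.55% fell at this dose, and the count describes the list and no more. The falls included Cyp4a12a (log2 fold change -2.28) and Cyp2e1 (-0.76), and the rises Cyp4a14 (5.60) and Cyp27b1 (3.15), which encodes the enzyme that activates vitamin D. At lower doses the calls were Cyp2f2, lower at 3 µg/kg (-0.97), and Cyp26b1 and Cyp27b1, higher at 10 µg/kg (2.29 and 1.66). These P450 genes were named after their values were seen.

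Of 9 genes for the receptor, its partners and its regulators, 2 rose and 3 fell at 30 µg/kg (edgeR), where 8.39% of all genes rose and 7.55% fell. Their median log2 fold change was 0.00, with calls in both directions. Ahr, the receptor, had a log2 fold change of 0.00 ± 0.15 (SE), with 7.05 to 12.0 CPM at 30 µg/kg and 7.99 to 11.4 CPM in vehicle. Arnt, its partner, was at 48.4 ± 5.07 CPM against 45.0 ± 7.83 in vehicle (SD, n = 5). The chaperone genes Hsp90aa1 and Hsp90ab1 and the co-chaperone gene Ptges3 fell by 0.54, 0.31 and 0.23 on the log2 scale.

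The 2 that rose were repressors of the receptor. Ahrr, which encodes the AhR repressor, was at 16.3 ± 3.48 CPM at 30 µg/kg against 1.10 ± 0.70 in vehicle (SD, n = 5), a log2 rise of 3.89 ± 0.37 (SE, edgeR adjusted p = 8.73e-10). Its call began at 3 µg/kg with a log2 fold change of 2.08, the dose at which Cyp1b1 was first called. Tiparp, which encodes an ADP-ribosyltransferase that curbs the receptor, rose by 0.58 at 30 µg/kg and was called at no lower dose.

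Of 10 other enzymes and factors known as AhR targets, 9 were tested (Gsta1 was not). At 30 µg/kg 7 of them rose and 0 fell in edgeR's test, beside 8.39 and 7.55% of all genes. The median log2 fold change of the 9 tested genes was 0.83 there, beside 0.01 over all genes tested. The number called higher was 1 at 1 µg/kg, 2 at 3 µg/kg and 4 at 10 µg/kg, where 0.507, 1.03 and 3.82% of all genes were called higher. Aldh3a1, an aldehyde dehydrogenase gene, was called from 1 µg/kg (log2 fold change 1.41, edgeR adjusted p = 0.0357) and reached 2.81 at 30 µg/kg. Nqo1, a quinone reductase gene, was called from 3 µg/kg (0.75) and reached 1.80.

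The other rises at 30 µg/kg in that list were Gsta2 (log2 fold change 1.33), Xdh (1.19), Ugt1a6a (0.83), Nfe2l2 (0.71) and Cyp2s1 (0.56). The value of Ugt1a6a is uncertain because genes of its locus share exons. Of 7 genes that supply electrons or heme to P450 enzymes, 0 rose and 1 fell at 30 µg/kg, beside 8.39 and 7.55% of all genes, which is no result about these genes. The fall was in Cyb5b (-0.30). Por, the reductase that passes electrons to microsomal P450 enzymes, was at -0.18 on the log2 scale (edgeR adjusted p = 0.149), and Alas1, the first enzyme of heme synthesis, -0.45 (edgeR adjusted p = 0.0791).

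**Figure D5:**
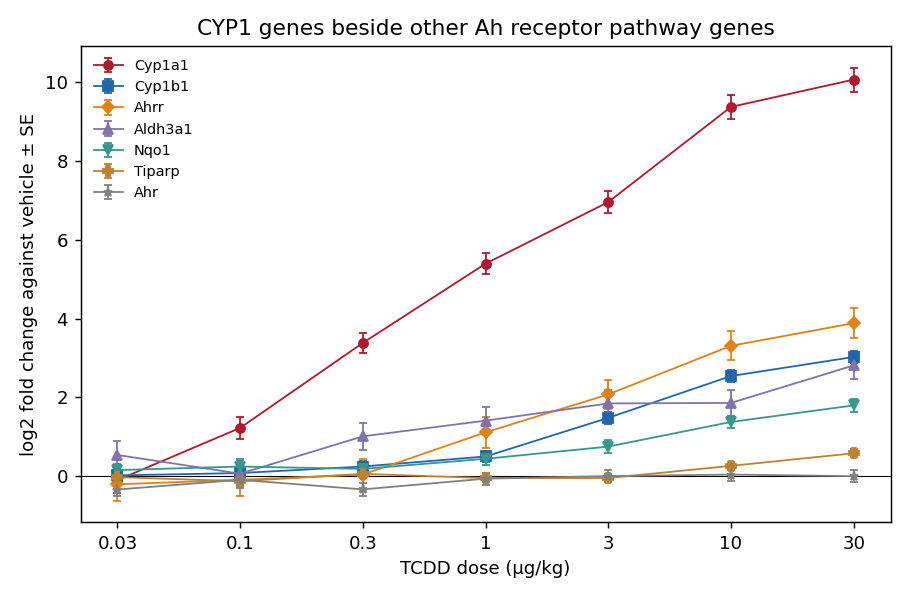
Log2 fold change against vehicle with standard errors at each TCDD dose for Cyp1a1, Cyp1b1 and other genes of the Ah receptor pathway, from 1 edgeR fit with shared vehicle libraries. Cyp1a1 reaches 10.07, Ahrr 3.89, Cyp1b1 3.03, Aldh3a1 2.81, Nqo1 1.80 and Tiparp 0.58 at 30 µg/kg, while Ahr is at 0.00.

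The genes whose log2 CPM followed each member most closely over the 40 libraries were found by Pearson's r among 17342 genes. These libraries share their dose groups, so the values describe similar profiles. For Cyp1a1 they were Neurl3 (r = 0.95), Emcn (0.93), Atp12a (0.93), Lgals3bp (0.91) and Peg3 (0.91), and Cyp1b1 itself stood at 0.92. For Cyp1b1 they were Peg3 (0.96), Atp12a (0.94), Nfe2l2 (0.93), Acer2 (0.92) and Ahrr (0.92). Neurl3, an E3 ubiquitin ligase gene, went from 7.83 ± 1.23 CPM in vehicle to 30.9 ± 5.30 at 30 µg/kg (SD, n = 5), and Peg3, an imprinted zinc finger gene, from 27.6 ± 2.41 to 90.5 ± 15.4 (SD, n = 5). The membership of these lists depended on the measure: with Spearman's rho, 2 of the 5 for Cyp1a1 and 3 of the 5 for Cyp1b1 were kept.

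Libraries of the same dose were also compared for whether kidneys high in one member were high in another. After the group means were removed, Pearson's r between Cyp1a1 and Cyp1b1 was 0.09 and Spearman's rho 0.11 over 40 libraries (permutation p = 0.641 and 0.546, adjusted p = 0.737 and 0.548 over 3 pairs). For Cyp1a1 and Cyp1a2 they were 0.28 and 0.30 (permutation p = 0.0665 and 0.0722, adjusted p = 0.199 and 0.217). For Cyp1b1 and Cyp1a2 they were 0.08 and 0.11 (permutation p = 0.737 and 0.548, the same after adjustment). None passed, and without the 2 libraries farthest from the median r was 0.22, 0.27 and 0.10. The titles fall into 2 runs of numbers that each pass through the doses in order, and within them r was 0.21 and -0.19 for the first pair, 0.17 and 0.18 for the second and 0.09 and -0.12 for the third.

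Markers of several cell types also moved with dose. Endothelial markers, 8 in number, summed to 486 to 558 CPM in vehicle and 632 to 752 CPM at 30 µg/kg, with 5 of 8 higher in edgeR's test. Of all genes tested, 8.39% were higher and 7.55% lower at this dose, against which this and the next counts are read. Markers of vascular smooth muscle and pericytes, also 8, summed to 137 to 179 CPM and 163 to 244 CPM (4 of 7 tested higher). Macrophage markers summed to 89.7 to 149 CPM and 184 to 240 CPM (7 of 8 higher), and fibroblast markers to 250 to 366 CPM and 270 to 531 CPM (2 of 7 higher). Fat markers, 8 in number, summed to 119 to 320 CPM and 293 to 653 CPM (1 higher, 1 lower). Proximal tubule markers summed to 11578 to 18310 CPM at 30 µg/kg, with 5 of 8 lower and 1 higher. None of these lists had a marker at 3 counts or fewer in all 40 libraries, and this was not checked within single groups. At 0.3 µg/kg none of these markers was called in edgeR's test, but Cyp1a1 was the only gene called there (0.00577% of those tested). With so few calls over all genes, that is no result about the markers. Their part in the rise of Cyp1a1 and Cyp1b1 at higher doses was not tested.

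In the authors' deposited table of log2-scale values, the members ranked the 40 libraries as CPM did (Spearman's rho at least 0.999). Its differences between 30 µg/kg and vehicle were smaller, at 7.93 for Cyp1a1, 2.58 for Cyp1b1 and 0.474 for Cyp1a2, and no value of Cyp1a2 in it lay below 6.67, the value of libraries with 0 counts. The table's transformation is not given in the sources used here.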

How the data were processed

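RNA from 40 kidneys was sequenced as paired-end reads of 150 bases, per the labels. The authors deposited counts per gene for each library, as whole numbers in an unstranded column and 2 stranded columns, and 1 table of log2-scale values whose transformation is not given in the sources used here. The submitters' processing notes name FastQC 0.11.7, Trimmomatic 0.39, STAR 2.7.3a and DESeq2, and the builds GRCm39 and mm10. Which build and annotation the counts rest on is not given in the sources used here, so no coordinates come from the count files.

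The unstranded counts were used, since the stranded columns held nearly equal shares (50.4 to 51.0% in the first). Lines without a gene entered neither library sizes nor tests, and held 1.41 to 2.66% unmapped, 6.98 to 9.70% mapping to several places, 5.28 to 7.27% in no feature and 5.40 to 5.98% ambiguous. GENCODE M21 (GRCm38) named 52083 identifiers and gave exonic lengths. The 3276 unnamed ones held 0.663% of counts.

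edgeR 4.0.16 in R 4.3.3 was fitted once to all 40 libraries (filterByExpr by group, TMM factors 0.966 to 1.09, robust quasi-likelihood test, biological coefficient of variation 17.1%). A gene was called at a Benjamini-Hochberg adjusted p under 0.05 over all 17345 genes. Contrasts with vehicle share the vehicle libraries. Log2 CPM used a prior count of 2. Differences between members used a two-sided exact permutation test over libraries, and correlations 100000 permutations within groups. The edgeR and likeness steps were tested on simulated data. The alternatives were RLE factors, no filter, DESeq2 1.42.0, fits to 2 groups, other count columns, a title-run covariate and leaving out libraries.

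Replicates were numbered in accession order and pair nothing. The 80 replicate pairs differed by more than sampling noise (chi-square per degree of freedom 6.95 to 81.9). Counts carry no molecular identifiers, so intervals cover counting error only. Named genes are the members, the pathway lists, and the 5 genes most like Cyp1a1 and Cyp1b1. The members and lists were chosen with earlier results of these data known.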

Additional observations from a re-analysis of the deposited data

Results flagged for a closer look

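Within groups of 5, a library was set apart when its gap to the nearest other library took up an unusually large part of the group's range (Dixon's test at 95%). For values that follow a normal distribution chance gives about 1 in 20 groups. That rate does not hold for Cyp1a2, whose groups hold 0 or few counts in most libraries, and 3 of the 5 libraries set apart among 23 groups are of that gene. For Cyp1a1 these were the kidney of replicate 4 at 0.03 µg/kg, with 4.02 CPM above a next value of 2.04, and that of replicate 1 at 10 µg/kg, with 1309 CPM below a next value of 1595. For Cyp1a2, replicate 3 of the 0.1 µg/kg group had 0.113 CPM, which is 2 counts where the other 4 libraries held 0. Replicate 4 of the 0.3 µg/kg group had 2.29 CPM above a next value of 0.175, and replicate 5 of the 10 µg/kg group had 6.33 CPM above a next value of 0.768.

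The strand columns, which the comparisons of the report do not use, held fragments counted for Cyp1a1 on one strand and for Cyp1a2 on the other. There were 3 at 3 µg/kg, 20 at 10 µg/kg and 26 at 30 µg/kg, and 0 in vehicle.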

How the results depend on the processing

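The rises of Cyp1a1 from 0.3 µg/kg and of Cyp1b1 from 3 µg/kg against vehicle, and the trends of both, kept their direction and call under every alternative that gave a value. Counting both stranded columns and the trend without single libraries were chosen after seeing the data. Leaving out 1 library kept all of these too. Without 1 library each, the step from 10 to 30 µg/kg ranged from 0.63 to 0.76 for Cyp1a1, 0.44 to 0.56 for Cyp1b1 and -0.73 to 1.69 (log2 fold change) for Cyp1a2. Without the low-count filter the first 2 were 0.68 and 0.47 and not called; in the fit to 2 groups 0.70 and 0.50, not called; without the 2 libraries of the suffix _R 0.73 and 0.40, not called. DESeq2 gave 0.70 for Cyp1a1, not called, and 1.34 for its step from 0.03 to 0.1 µg/kg, called (1.19 to 1.69 without 1 library each). The cause was not tested.

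Against vehicle, the fit to 2 groups called Cyp1b1 at 1 µg/kg (0.50) and Cyp1a2 at 30 µg/kg (2.96), as did the title-run covariate for Cyp1a2 (3.57). Both calls of Cyp1a2 rest on the group through which it entered the test and are no independent support. Signs turned only where nothing was called: Cyp1a1 at 0.03 µg/kg was 0.067 in the stranded column; Cyp1a2 at 3 µg/kg was -0.41 with the covariate and -0.056 in DESeq2; Cyp1a2 was 0.15 from 1 to 3 µg/kg in the stranded column and 0.77 from 10 to 30 µg/kg with the covariate. Without 1 library each, values against vehicle ran from -0.47 to 0.20 (Cyp1a1, 0.03), -0.060 to 0.10 (Cyp1b1, 0.03), -0.72 to 2.41 (Cyp1a2, 0.3) and -1.52 to 0.71 (Cyp1a2, 3 µg/kg). Between neighbours they ran from 0 to 2.44 for Cyp1a2 and -0.022 to 0.14 for Cyp1b1 (0.03 to 0.1), and -1.47 to 1.43 for Cyp1a2 (0.3 to 1 µg/kg).

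Genes called numbered 5 at 0.03 and 2 at 0.3 µg/kg in DESeq2, and 113 at 3 and 969 at 30 µg/kg in the fit to 2 groups; without 1 library each they were 0 to 1 at 0.03 (1 without vehicle replicate 3) and 119 to 199 at 3 µg/kg (119 without replicate 5).

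Ratios to Cyp1a2 depended on the prior count. With 5 the change of Cyp1a1 over Cyp1a2 was 0.46 at 0.03, no longer called, and 2.94 at 0.3 µg/kg, now called; that of Cyp1b1 over Cyp1a2 was 1.52 at 3 and 1.18 at 30 µg/kg, now called. With 0.5 the latter was -0.045 at 1 and -0.52 at 30 µg/kg. Without 1 library each, Cyp1a1 over Cyp1b1 ran from -0.42 to 0.11 (0.03), Cyp1a1 over Cyp1a2 from 0.63 to 1.03 (0.03) and 2.53 to 3.70 (0.3), and Cyp1b1 over Cyp1a2 from 0.67 to 1.18 (0.03), -0.73 to 0.59 (0.3), -0.31 to 0.46 (1) and 1.31 to 1.95 (3 µg/kg). Genes most like a member, by group means, shared 1 of 5 for each.

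Cyp1a2 gave no value in 11 of the fits to 2 groups, in 2 DESeq2 steps or in trends without the highest doses. No paired analysis was possible because the labels give no replicate numbers shared between groups.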
